A study of Mus musculus with 10 samples.

Results

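In all, 10 genes of the MHC class I presentation pathway were chosen by name out of the 28454 gene symbols in the deposited tables. They were the heavy chain genes H2-K1, H2-D1, H2-Q4, H2-Q7, H2-T22 and H2-T23, the light chain gene B2m, the peptide loading genes Tap1 and Tapbp, and the transcriptional regulator Nlrc5. All 10 genes were found, and all 10 were among the 12805 genes tested, those reaching 1 FPKM in 4 or more of the 10 libraries. FPKM counts fragments scaled by transcript length and by the library's mapped fragments. Gene expression was measured in CD31+ cells taken by magnetic sorting from B16F10 tumours of adult mice, after cells carrying CD11b, a myeloid surface protein, had been removed. B16F10 is a mouse melanoma cell line. The Shb-inactivated group (6 libraries) carried a floxed Shb gene and Cdh5-CreERt2, an inducible Cre recombinase driven by a gene of endothelial cells. The wild-type group (4 libraries) carried Cdh5-CreERt2 alone, so both groups carried the Cre. The source label names tumours and lungs for each library, while the tissue label names tumours only. The treatment that induced the Cre is not given in the sources used here. Shb encodes an adaptor protein that acts downstream of VEGF receptors, and the comparison asks how its loss in endothelium changed the transcripts of tumour vessels.

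Nucleated cells show peptides from their own proteins on MHC class I molecules, where CD8+ T cells read them and natural killer cells sense their absence. A heavy chain pairs with beta-2-microglobulin, the product of B2m, in the endoplasmic reticulum. The TAP transporter brings in peptides cut by the proteasome, and tapasin, the product of Tapbp, helps load them. NLRC5 raises transcription of the whole set through factors bound at the X and Y boxes of class I promoters. Interferons raise it through an interferon-stimulated response element, and NF-kappa-B acts at a site beside that element. Endothelial cells express class I at a high level and respond to interferon, whereas B16F10 cells are known for low surface class I that interferon gamma restores.

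The promoters of these genes share letters of the elements named above, and 5 of them are given here to show where these letters stand. They were picked among promoters that hold a response element, so likeness between them is no result. The stretches are RefSeq sequence on GRCm38.p6, written 5′ to 3′ along the gene's own strand, and all lie upstream of the RefSeq start. Capitals mark matches, on either strand, to an NF-kappa-B site motif, to GAANNGAAA (a form of the interferon-stimulated response element) or its longer form with a further A in the first run, to TGACG (the core of the X2 box) or to ATTGG (the Y box). The run of H2-Q4 that opens with GGGG holds a pair of overlapping NF-kappa-B matches, and no other motifs overlap in these stretches.
H2-K1, chr17:34000354-34000463, minus strand: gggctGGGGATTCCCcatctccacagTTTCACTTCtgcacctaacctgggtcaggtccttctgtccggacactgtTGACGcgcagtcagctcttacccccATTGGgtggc
H2-Q4, chr17:35379438-35379571, plus strand: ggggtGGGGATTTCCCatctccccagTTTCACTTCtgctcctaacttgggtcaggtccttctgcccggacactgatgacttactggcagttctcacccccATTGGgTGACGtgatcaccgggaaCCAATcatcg
H2-Q7, chr17:35439017-35439148, plus strand: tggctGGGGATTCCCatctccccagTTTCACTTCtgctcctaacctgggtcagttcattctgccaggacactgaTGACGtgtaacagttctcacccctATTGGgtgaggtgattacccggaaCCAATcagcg
H2-T22, chr17:36042755-36042948, minus strand: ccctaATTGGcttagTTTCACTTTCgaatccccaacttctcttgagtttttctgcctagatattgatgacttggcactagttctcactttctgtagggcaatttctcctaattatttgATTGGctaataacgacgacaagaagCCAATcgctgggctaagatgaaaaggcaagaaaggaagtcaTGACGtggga
B2m, chr2:122147543-122147643, plus strand: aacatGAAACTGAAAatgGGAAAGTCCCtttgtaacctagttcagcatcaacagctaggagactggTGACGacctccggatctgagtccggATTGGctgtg

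In H2-K1, H2-Q4 and H2-Q7 the NF-kappa-B match, the response element, and the X2 and Y box matches lay on the same stretch. In H2-Q4 the TGACG match came after the first Y box and not before it. In H2-T22 it came after all 3 Y box matches. H2-T22 had the response element match and no NF-kappa-B match, and in B2m the response element preceded the NF-kappa-B match. The promoter table held 9 of the 10 genes, and a promoter of Nlrc5 was not analysed here. Counted over the whole window from 250 bases before to 50 after the start, the Y box letters stood in 9 of 9 windows, against 37.4% of all 32851 promoter windows. TGACG stood in 7 of 9, against 20.8% of all windows, and the NF-kappa-B letters in 5 of 9, against 4.79%. GAANNGAAA stood in the 4 windows of H2-K1, H2-D1, H2-Q4 and H2-Q7, against 7.52% of all windows. The longer form stood in the 3 windows of H2-T22, H2-T23 and B2m, against 3.44%, and this form was added after the sequences had been read. The windows of Tap1 and Tapbp held neither form. The motifs were chosen as elements known from class I promoters, and the stretches of H2-K1, H2-D1, H2-Q4 and H2-Q7 are much alike. The 9 windows are thus not separate draws, and their shares are only a description. These are letter matches, and binding was not measured.

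In GENCODE vM21 on GRCm38, the 6 heavy chain genes, Tap1 and Tapbp lie on chromosome 17, in the MHC of the mouse. Tapbp (33915899 to 33929292, plus strand), H2-K1 (33996017 to 34000347, minus strand) and Tap1 (34187553 to 34197225, plus strand) lie at one end. H2-D1 (35262730 to 35267499), H2-Q4 (35379617 to 35385290) and H2-Q7 (35439155 to 35443773) follow on the plus strand. H2-T23 (36029773 to 36032855) and H2-T22 (36037128 to 36042747) follow on the minus strand. B2m lies on chromosome 2 (122147686 to 122153083, plus strand) and Nlrc5 on chromosome 8 (94434356 to 94527272, plus strand).

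Heavy chain genes resemble each other, so part of their reads cannot be given to 1 gene. Of all 50-base words in the annotated transcripts of H2-T22, 34.5% also occur in transcripts of another gene, mostly H2-T10 (31.3%). The share was 26.4% for H2-Q7, 21.8% for H2-Q4, 13.6% for H2-T23, 12.8% for H2-D1 and 9.63% for H2-K1. It was 2.87% for Tapbp and 0.44% for Tap1, and no word of B2m or Nlrc5 was shared. How the authors' counting treated reads that fit several genes is not given in the sources used here, so the levels of H2-T22, H2-Q7 and H2-Q4 are the least certain.

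The libraries held endothelial transcripts throughout, together with transcripts of other cells in unequal amounts. All 20 pan-endothelial genes had at least 8.33 FPKM in each library, and Pecam1, which encodes CD31, had 873 to 1237 FPKM in Shb-inactivated and 569 to 864 FPKM in wild-type libraries. The summed level of the 20 genes was 5554 to 7721 FPKM in Shb-inactivated and 4586 to 6138 FPKM in wild-type libraries. Shb was 0.37 to 1.44 FPKM in Shb-inactivated and 2.78 to 5.44 FPKM in wild-type libraries, without overlap. The summed level of 16 macrophage genes ran from 61.6 to 5228 FPKM in Shb-inactivated and from 63.4 to 7033 FPKM in wild-type libraries. Shb-inactivated replicates 3 and 4 and wild-type replicate 3 held most of these transcripts, with mean log2 values of that list of 7.30, 7.29 and 7.88. The list was at 1.70 to 2.11 in the other Shb-inactivated libraries and at 3.58, 4.51 and 1.63 in wild-type replicates 1, 2 and 4. Summed melanoma genes (11 measured) were 15.4 to 364 FPKM in Shb-inactivated and 93.0 to 1180 FPKM in wild-type libraries, highest in wild-type replicate 1. No macrophage or melanoma gene was at 0 in all libraries. FPKM keeps no read totals, so depth is unknown. In a sorted bulk sample fewer cells of a type cannot be told apart from less RNA per cell.

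MHC class I genes were abundant in both groups, and 8 of 10 averaged higher in Shb-inactivated than in wild-type libraries on the log2 scale, by amounts within the spread between libraries. B2m was the most abundant, followed by H2-D1 and H2-K1, and the other genes stood far below them. No member passed the limma threshold (adjusted p under 0.05), nor did any of the 12805 genes tested (percent called 0.0). The median log2 fold change (Shb-inactivated minus wild-type, of FPKM + 1) was 0.23 over the 10 genes and 0.0055 over all genes tested. Over all genes tested, 51.2% had a fold change above 0. One member, H2-T22, had an unadjusted p under 0.05, against 3.45% (442) of all genes. No member separated the groups without overlap, which 0.539% of all genes did upward and 0.18% downward. Shb, the inactivated gene, did separate them. It had a log2 fold change of -1.27, an unadjusted limma p of 9.7e-05 and a limma adjusted p of 0.989. The threshold thus missed this change too, so an uncalled gene is not shown to be unchanged. The 20 pan-endothelial genes had a median of 0.32 in the same comparison and 16 macrophage genes a median of -0.69. It was -1.44 for 11 melanoma genes and -1.01 for 8 B cell genes, all of them below 0. The part of these cell mixtures in the class I values was not tested.

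**Figure D1:**
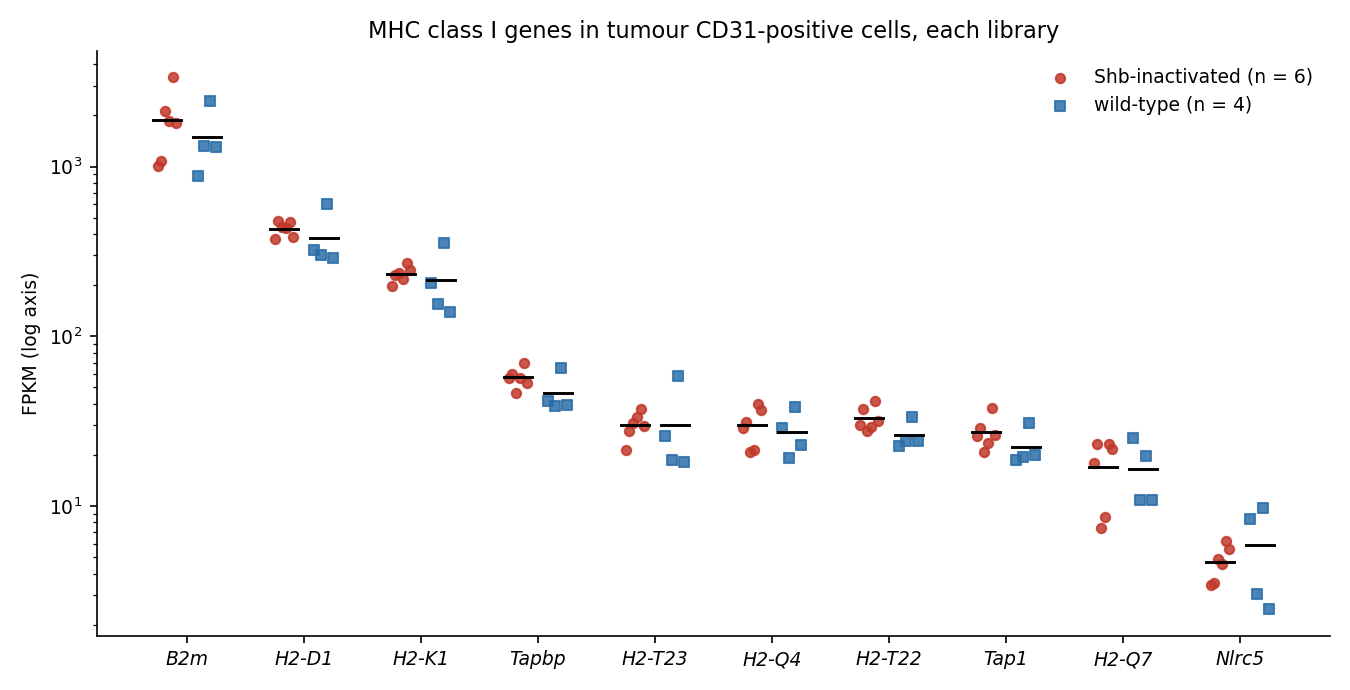
FPKM on a log axis of the 10 MHC class I genes, ordered by wild-type mean, with 1 point per library (circles, Shb-inactivated, n = 6; squares, wild-type, n = 4) and a black bar at each mean. B2m is at 876 FPKM or more in every library and Nlrc5 below 10 FPKM, and the groups overlap for each gene.

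Among the heavy chains, H2-D1 and H2-K1 encode the classical molecules that present peptides to CD8+ T cells. H2-D1 had a lowest value of 374, a median of 438 and a highest value of 477 FPKM in Shb-inactivated libraries, against 323, 300.4, 606 and 287 FPKM in wild-type replicates 1 to 4. Every Shb-inactivated library was above wild-type replicates 1, 2 and 4 and below wild-type replicate 3. The mean was 431 ± 42.8 FPKM (SD, n = 6) in Shb-inactivated and 379 ± 152 FPKM (SD, n = 4) in wild-type libraries. The model put the log2 fold change at 0.25 (SE 0.21, 95% interval from -0.20 to 0.71, limma adjusted p = 0.989, exact permutation p = 0.262).

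H2-K1 had a lowest value of 197, a median of 232 and a highest value of 269 FPKM in Shb-inactivated libraries, against 207, 155, 354 and 139 FPKM in wild-type replicates 1 to 4. Wild-type replicate 3 was again above all others, and Shb-inactivated replicate 1 was below wild-type replicate 1. The mean was 232 ± 24.6 FPKM (SD, n = 6) in Shb-inactivated and 214 ± 98.1 FPKM (SD, n = 4) in wild-type libraries, with a log2 fold change of 0.21 (SE 0.23, limma adjusted p = 0.989, exact permutation p = 0.414). Both classical genes varied less among the 6 Shb-inactivated libraries than among the 4 wild-type libraries, whose spread came mostly from replicate 3.

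The nonclassical heavy chains were each at 7.47 to 58.1 FPKM. H2-T22, whose product is a ligand of some gamma delta T cell receptors, had a lowest value of 27.6, a median of 30.9 and a highest value of 41.6 FPKM in Shb-inactivated libraries, against 22.6, 24.1, 33.2 and 24.3 FPKM in wild-type replicates 1 to 4. Shb-inactivated replicates 2 and 5 were above all wild-type libraries, and all 6 were above wild-type replicates 1, 2 and 4. Its mean of 32.9 ± 5.34 FPKM (SD, n = 6) in Shb-inactivated and 26.03 ± 4.86 FPKM (SD, n = 4) in wild-type libraries gave the largest fold change of the 10 genes, 0.33 on the log2 scale (SE 0.15, 95% interval 0.0032 to 0.65). Its unadjusted limma p was 0.0482, its limma adjusted p was 0.989, and its exact permutation p was 0.0571, the smallest of the 10 genes.

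H2-T23 encodes Qa-1, which holds out a leader peptide to the CD94/NKG2 receptors of natural killer cells. It had a lowest value of 21.3, a median of 30.2 and a highest value of 37.1 FPKM in Shb-inactivated libraries, against 25.7, 18.6, 58.1 and 18.1 FPKM in wild-type replicates 1 to 4. The library with the highest level, wild-type replicate 3, stood 3.21-fold above the lowest, wild-type replicate 4. The log2 fold change was 0.14 (SE 0.30, exact permutation p = 0.705).

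H2-Q4 had a lowest value of 20.9, a median of 30.0 and a highest value of 40.1 FPKM in Shb-inactivated libraries, against 28.8, 19.2, 38.2 and 22.9 FPKM in wild-type replicates 1 to 4 (log2 fold change 0.13, SE 0.23, exact permutation p = 0.6). H2-Q7, which encodes a Qa-2 molecule, had a lowest value of 7.47, a median of 19.8 and a highest value of 23.1 FPKM in Shb-inactivated libraries, against 25.1, 10.8, 19.6 and 10.9 FPKM in wild-type replicates 1 to 4. It was the only heavy chain with a fold change below 0. Shb-inactivated replicates 3 and 4, with 7.47 and 8.59 FPKM, were the lowest of all libraries, while wild-type replicate 1 was the highest. H2-Q4 was also low in Shb-inactivated replicates 3 and 4 (20.9 and 21.3 FPKM), as was the neighbouring gene H2-Q6 (4.48 and 6.08 FPKM). The log2 fold change of H2-Q7 was -0.0064 (SE 0.38, exact permutation p = 0.995).

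**Figure D2:**
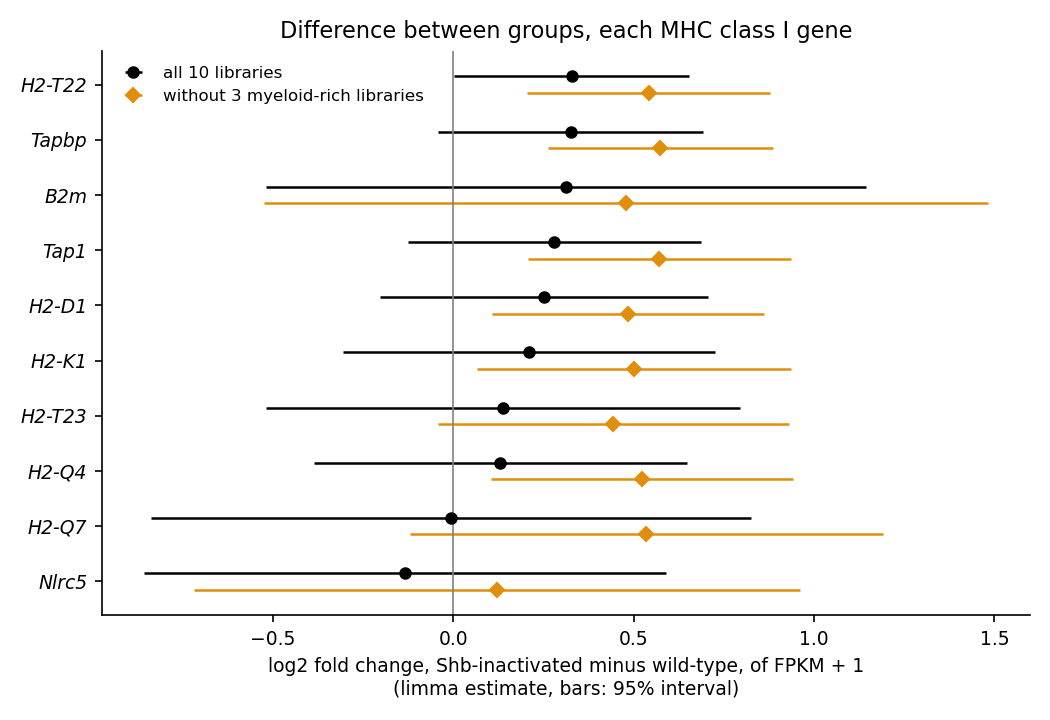
Log2 fold change (Shb-inactivated minus wild-type, of FPKM + 1) of each MHC class I gene with its 95% interval from limma, over all 10 libraries (black circles) and without 3 myeloid-rich libraries (orange diamonds). With all libraries, only the interval of H2-T22 lies above 0, and without the 3 libraries those of 6 genes do.

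B2m, the invariant light chain, had a lowest value of 1009, a median of 1832 and a highest value of 3355 FPKM in Shb-inactivated libraries, against 876, 1320.1, 2438 and 1312 FPKM in wild-type replicates 1 to 4. Shb-inactivated replicate 5 was the highest library, and the groups overlapped widely. The mean was 1872 ± 854 FPKM (SD, n = 6) in Shb-inactivated and 1486 ± 667 FPKM (SD, n = 4) in wild-type libraries, with a log2 fold change of 0.31 (SE 0.38, limma adjusted p = 0.989, exact permutation p = 0.457).

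FPKM is scaled by transcript length, so light and heavy chain levels can be set against each other within a library. B2m was 1.31 to 3.80 times the summed FPKM of the 6 heavy chains. The log2 ratio was 1.16 ± 0.57 (SD, n = 6) in Shb-inactivated and 1.08 ± 0.42 (SD, n = 4) in wild-type libraries, a difference of 0.08 (two-sided exact permutation p = 0.776). The ratio was lowest in Shb-inactivated replicates 1 and 2 (1.51 and 1.31) and wild-type replicate 1 (1.38). It was 2.40 to 3.80 in the other Shb-inactivated libraries and 2.198 to 2.61 in the other wild-type libraries. The same 3 libraries had the least signal from 35 microRNA genes, 16.8 and 24.2 FPKM in Shb-inactivated replicates 1 and 2 and 20.6 FPKM in wild-type replicate 1. The other libraries had 152 to 288 FPKM of these genes in the Shb-inactivated group and 301 to 431 FPKM in the wild-type group. Whether library preparation had a part in the low ratio was not tested.

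H2-D1 and H2-K1 made up most of the heavy chain pool in every library. H2-D1 made up 55.8 ± 2.80% of the summed heavy chain FPKM in Shb-inactivated (SD, n = 6) and 54.9 ± 2.82% in wild-type libraries (SD, n = 4). H2-K1 made up 30.0 ± 1.64% in Shb-inactivated and 30.4 ± 2.36% in wild-type libraries. The log2 ratio of H2-K1 to H2-D1 was -0.89 ± 0.14 (SD, n = 6) in Shb-inactivated and -0.85 ± 0.18 (SD, n = 4) in wild-type libraries, a difference of -0.04 (two-sided exact permutation p = 0.69). Of the 6 shares, that of H2-Q7 had the widest range relative to its level, from 0.976% of the pool in Shb-inactivated replicate 3 to 3.97% in wild-type replicate 1.

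**Figure D3:**
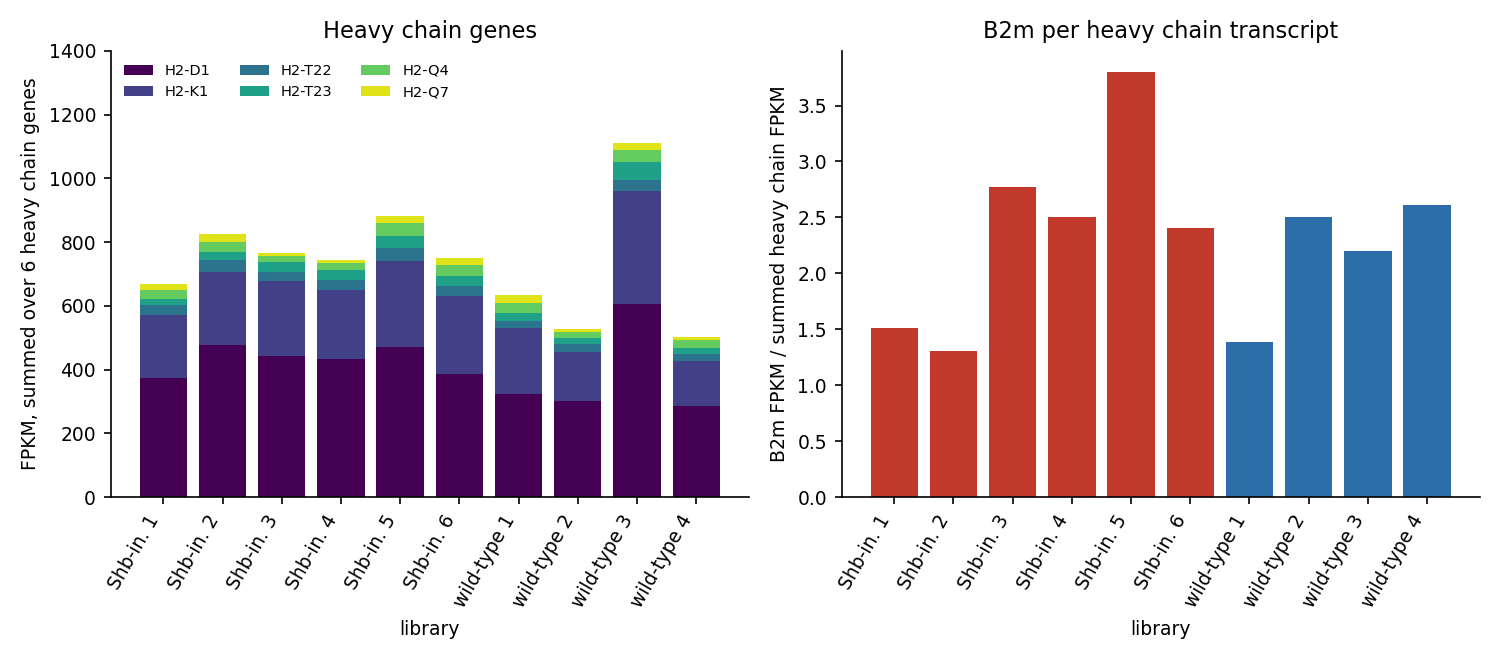
Left, FPKM of the 6 heavy chain genes stacked for each library, and right, B2m FPKM divided by that sum, with 6 Shb-inactivated libraries left of 4 wild-type libraries. The heavy chain sum runs from 669 to 883 FPKM in Shb-inactivated and from 502 to 1109 FPKM in wild-type libraries, and the ratio is lowest in Shb-inactivated replicates 1 and 2 and wild-type replicate 1.

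Tap1 encodes a subunit of the peptide transporter. It had a lowest value of 20.7, a median of 26.05 and a highest value of 37.7 FPKM in Shb-inactivated libraries, against 18.7, 19.4, 30.8 and 20.1 FPKM in wild-type replicates 1 to 4. All 6 Shb-inactivated libraries were above wild-type replicates 1, 2 and 4, and replicate 5 was also above wild-type replicate 3. The log2 fold change was 0.28 (SE 0.18, limma adjusted p = 0.989, exact permutation p = 0.181). Tapbp, encoding tapasin, had a lowest value of 46.5, a median of 56.8 and a highest value of 70.0 FPKM in Shb-inactivated libraries, against 41.5, 38.7, 65.5 and 39.2 FPKM in wild-type replicates 1 to 4. It showed the same order, with a log2 fold change of 0.33 (SE 0.17, limma adjusted p = 0.989, exact permutation p = 0.105).

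Nlrc5 was the least abundant of the 10 genes and, with H2-Q7, one of the 2 whose fold change was below 0. It had a lowest value of 3.42, a median of 4.71 and a highest value of 6.20 FPKM in Shb-inactivated libraries, against 8.42, 3.03, 9.75 and 2.47 FPKM in wild-type replicates 1 to 4. The 4 wild-type libraries lay outside the Shb-inactivated range, 2 above it and 2 below. The mean was 4.68 ± 1.10 FPKM (SD, n = 6) in Shb-inactivated and 5.92 ± 3.70 FPKM (SD, n = 4) in wild-type libraries, with a log2 fold change of -0.13 (SE 0.33, limma adjusted p = 0.992, exact permutation p = 0.695).

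How far the groups stood apart depended on 4 libraries. Wild-type replicate 3, the richest in macrophage transcripts, was the highest library for H2-K1, H2-D1, H2-T23 and Nlrc5 and the second highest for H2-Q4, B2m, Tap1 and Tapbp. Without it the median log2 fold change of the 10 genes was 0.47, all 10 were above 0, and none passed the threshold. Leaving out wild-type replicate 2 gave a median of 0.13 and leaving out replicate 4 gave 0.10; these are the libraries with the lowest class I levels. It was 0.14 without Shb-inactivated replicate 5, one of the highest.

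Leaving out all 3 myeloid-rich libraries left 4 Shb-inactivated and 3 wild-type libraries, with a median of 0.51 over the 10 genes and 0.02 over all genes. All 10 members were above 0 there, against 53.3% of all genes. H2-D1, H2-T22, Tap1 and Tapbp were then higher in all 4 Shb-inactivated than in all 3 wild-type libraries, 4 of 10 genes against 4.4% of all genes. Their log2 fold changes were 0.48 (SE 0.16), 0.54 (SE 0.15), 0.57 (SE 0.16) and 0.57 (SE 0.14). Each of these 4 genes had an exact permutation p of 0.0286, the smallest that 35 splits can give, and a limma adjusted p of 0.84. Among all 10 libraries, every Shb-inactivated library already stood above wild-type replicates 1, 2 and 4 for these 4 genes. Leaving out wild-type replicate 3 thus fixed the separation and the permutation p in advance, so neither counts as support. Of the members, 6 had an unadjusted p under 0.05 and a fold change above 0, against 2.6% of all genes, and no gene of the 12805 passed the adjusted threshold. The members moved together over the 10 libraries (median Pearson's r of 0.61 over 45 pairs). They are not separate draws, so their counts beside the shares of all genes are only a description. Macrophage list values were 1.70 to 2.11 in the 4 Shb-inactivated libraries left and 3.58, 4.51 and 1.63 in the 3 wild-type libraries left. Pan-endothelial values were 7.65 to 8.01 in the 4 Shb-inactivated and 7.24 to 7.56 in the 3 wild-type libraries, and melanoma values were 1.32, 3.16, 1.03 and 2.58 in Shb-inactivated replicates 1, 2, 5 and 6 and 5.56, 3.40 and 2.49 in wild-type replicates 1, 2 and 4. The part of any of these in the differences was not tested.

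Interferon genes varied between libraries in 2 separate ranges, and class I genes followed them to different extents. The mean log2 value of 50 interferon-stimulated genes stood at 3.55 and 3.53 in replicates 1 and 2 of the Shb-inactivated group and at 4.20, 4.38, 4.71 and 4.23 in replicates 3 to 6. It was 3.50, 3.52, 4.62 and 3.46 in wild-type replicates 1 to 4. No library lay between 3.55 and 4.20, so no pooled correlation with this list is given. Of the 49 interferon genes tested, 45 had a positive fold change, the median was 0.32, and none passed the threshold.

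Ifit3, Isg15 and Irf7 showed the same libraries as high. Ifit3, an antiviral RNA-binding protein, was 4.68, 3.98, 13.9, 27.8, 20.9 and 13.8 FPKM in Shb-inactivated replicates 1 to 6 and 4.00, 4.04, 26.7 and 3.14 FPKM in wild-type replicates 1 to 4. Isg15, a ubiquitin-like protein, was 11.1 to 32.8 FPKM in Shb-inactivated and 8.84 to 28.9 FPKM in wild-type libraries. Irf7, which amplifies type I interferon, was 12.4 to 39.8 FPKM in Shb-inactivated and 9.29 to 46.2 FPKM in wild-type libraries.

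The most abundant genes of the list were Ifitm3 and Bst2, both antiviral membrane proteins. Ifitm3 was 244 to 495 FPKM in Shb-inactivated and 149.9 to 496 FPKM in wild-type libraries, and Bst2 was 145 to 202 FPKM in Shb-inactivated and 129 to 161 FPKM in wild-type libraries. Both departed from the order of the list. Bst2 was 162 and 168 FPKM in Shb-inactivated replicates 1 and 2, above replicates 3 and 6 (148 and 145 FPKM). Ifitm3 was 299 FPKM in wild-type replicate 4, above Shb-inactivated replicate 3 (292 FPKM).

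Gbp2, Cxcl10 and Irf1 did not share the order of the interferon list either. Gbp2, a guanylate-binding protein, was 14.6 to 41.6 FPKM in Shb-inactivated and 12.6 to 25.2 FPKM in wild-type libraries (log2 fold change 0.66, exact permutation p = 0.0714, limma adjusted p = 0.989). Cxcl10, a chemokine for T cells, was highest in the 3 myeloid-rich libraries, with 27.5 and 49.0 FPKM in Shb-inactivated replicates 3 and 4 and 48.0 FPKM in wild-type replicate 3. It was 5.82 to 19.1 FPKM in the other Shb-inactivated and 9.37 to 13.8 FPKM in the other wild-type libraries. Irf1, which binds the class I response element, was 58.4 to 93.5 FPKM in Shb-inactivated and 47.4 to 98.0 FPKM in wild-type libraries, and its lowest and highest values were both in wild-type libraries.

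**Figure D4:**
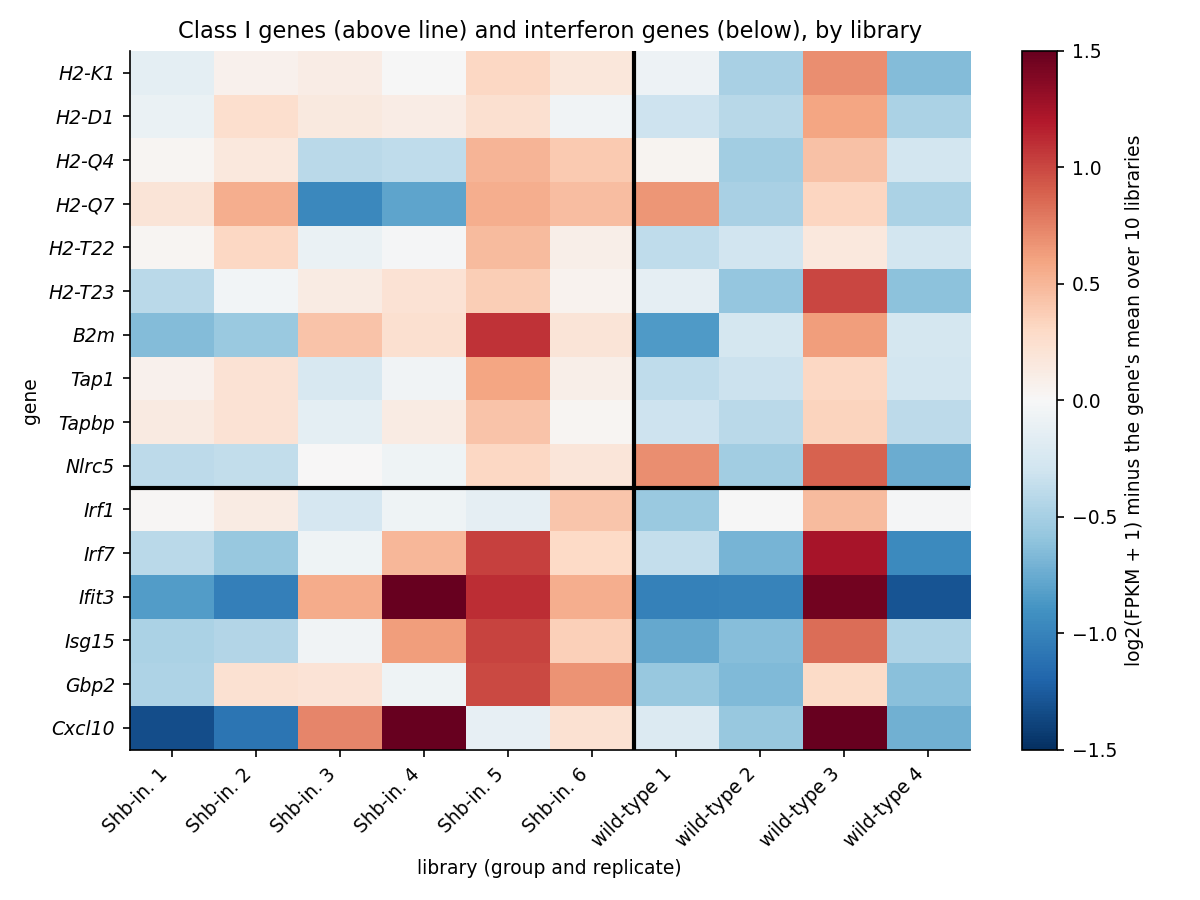
Colour map of log2(FPKM + 1) minus each gene's mean over 10 libraries for the 10 class I genes (above the line) and 6 interferon genes (below), with Shb-inactivated libraries left of wild-type libraries and the colour scale ending at 1.5 in either direction. Shb-inactivated replicate 5 and wild-type replicate 3 are high for most rows, while H2-Q7 is low in Shb-inactivated replicates 3 and 4, where Ifit3 is high.

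Set beside the interferon list library by library, H2-T23, H2-K1 and B2m came near its split into high and low libraries. H2-T23 was highest in the 5 libraries highest in interferon genes, with 29.5 to 37.1 FPKM in Shb-inactivated replicates 3 to 6 and 58.1 FPKM in wild-type replicate 3. It was at most 27.6 FPKM in the other Shb-inactivated and 25.7 FPKM in the other wild-type libraries. B2m was also highest in those 5 libraries, with Shb-inactivated replicate 5 first in both (4.71 and 3355 FPKM) and wild-type replicate 3 second in both (4.62 and 2438 FPKM). Shb-inactivated replicates 3, 4 and 6 came next, with 2124, 1861 and 1803 FPKM of B2m. In interferon genes these 3 libraries had another order, with 4.20, 4.38 and 4.23. H2-K1 was highest in wild-type replicate 3 and then in Shb-inactivated replicates 5, 6 and 3, while Shb-inactivated replicate 2 (229 FPKM) stood above replicate 4 (217 FPKM). Of the libraries high in interferon genes, Shb-inactivated replicates 3 and 4 and wild-type replicate 3 were also the myeloid-rich ones. The part of myeloid cells in this likeness was not tested.

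Each of the other members also had libraries out of the interferon split. Shb-inactivated replicate 2 had a low interferon value of 3.53, yet its H2-D1 level of 477 FPKM was the second highest of all libraries. Its Tap1 level of 28.9 FPKM and its Tapbp level of 60.2 FPKM were each the third highest, and its H2-T22 level of 37.2 FPKM was the second highest. H2-Q4 was lower in Shb-inactivated replicates 3 and 4 (20.9 and 21.3 FPKM), both high in interferon genes, than in the other Shb-inactivated libraries (28.6 to 40.1 FPKM). Wild-type replicate 1, with an interferon value of 3.50, had the second highest Nlrc5 (8.42 FPKM) and the highest H2-Q7 (25.1 FPKM). The 3 libraries low in microRNA genes were also among the 5 with low interferon values, and the part of that difference was not tested.

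**Figure D5:**
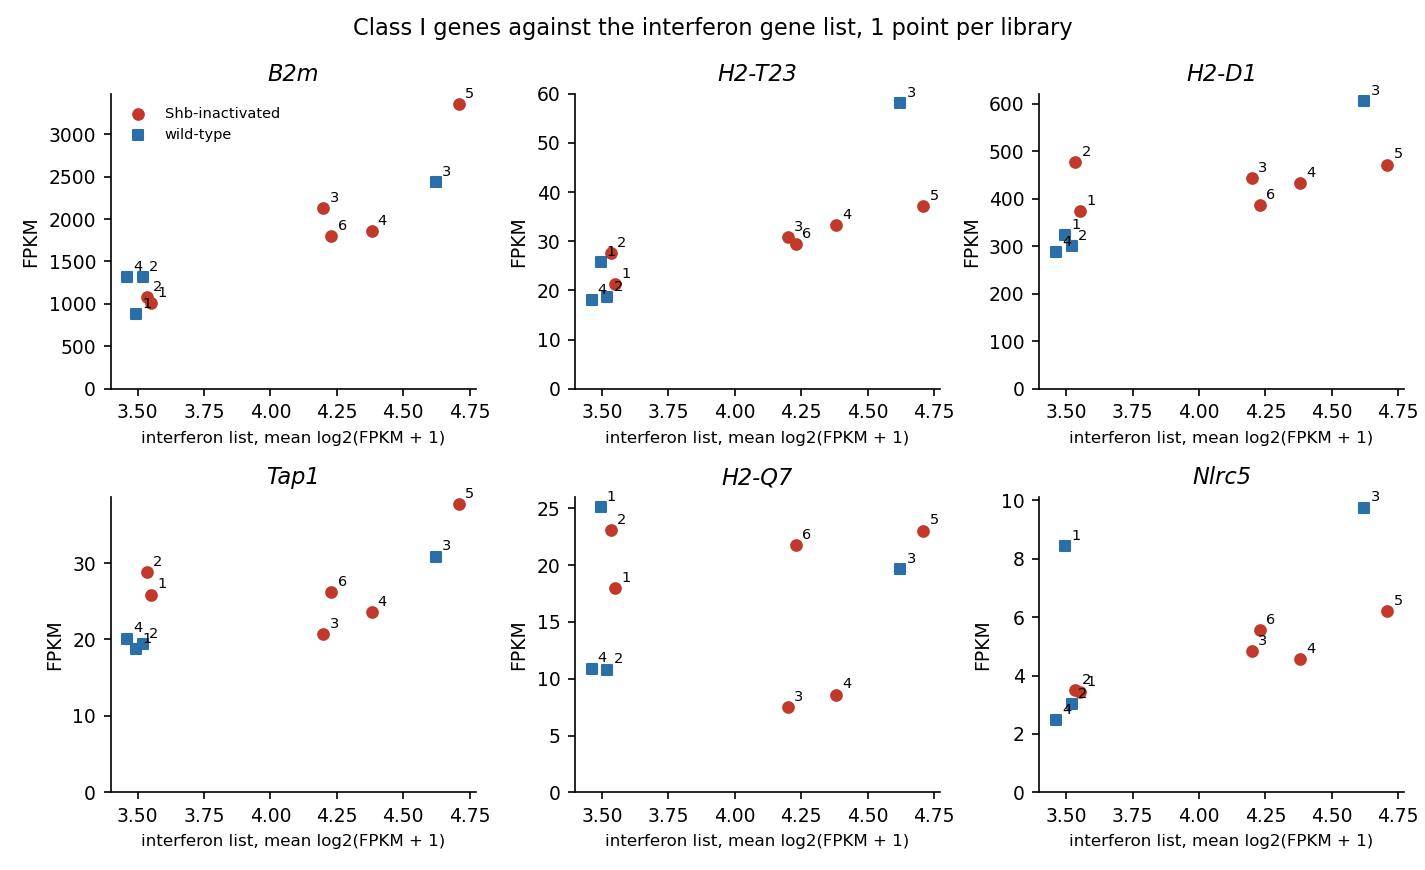
FPKM of 6 class I genes (vertical axes) against the mean log2(FPKM + 1) of 50 interferon-stimulated genes (horizontal axes), with 1 numbered point per library (circles, Shb-inactivated; squares, wild-type). B2m and H2-T23 are highest in Shb-inactivated replicates 3 to 6 and wild-type replicate 3, which lie at 4.20 to 4.71 on the horizontal axis, while wild-type replicate 1, at 3.50, is highest for H2-Q7 and second highest for Nlrc5.

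The members differed in how closely they moved together over the 10 libraries. Pearson's r of log2 values, given as a description since a library's depth and cell mixture enter both genes of a pair, was above 0 in 44 of 45 pairs, with a median of 0.61. The closest pairs were H2-T22 with Tap1 (r = 0.96), H2-K1 with H2-T23 (r = 0.95) and Tap1 with Tapbp (r = 0.94). H2-Q7 with B2m was the pair below 0 (r = -0.13), and among the members H2-Q7 was closest to H2-Q4 (r = 0.86). Nlrc5 had r = 0.81 with H2-K1, 0.80 with H2-T23, 0.59 with H2-Q4 and 0.56 with H2-D1, and its lowest values were 0.32 with Tap1 and 0.21 with H2-T22.

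Among 12795 other genes, the patterns most like those of the members, by Pearson's r over the 10 libraries, were partly interferon genes. For B2m they were Ifih1, a cytosolic RNA sensor (r = 0.98), and Mnda (r = 0.98), and for Tapbp they were Ifi35 (r = 0.95) and Hcfc1r1 (r = 0.93). For Tap1 they were Slfn5 (r = 0.93) and Ifi35 (r = 0.92), for H2-T22 Klf3 (r = 0.95) and Slfn5 (r = 0.94), and for H2-T23 Gm8995 (r = 0.96) and Dhx58 (r = 0.94). H2-Q7 was nearest to its neighbour H2-Q6 (r = 0.97), with which 6.31% of its 50-base words are shared, and then to Gbp4 (r = 0.90). H2-D1 was nearest to Ralgds (r = 0.95) and Bach1 (r = 0.95), H2-K1 to Zfp36l2 (r = 0.92) and Csf2rb2 (r = 0.91), and H2-Q4 to Fry and Ciart (r = 0.88 each). Nlrc5 was nearest to Zcchc2 (r = 0.91) and Tmem170b (r = 0.90). Spearman rank correlations of these pairs ran from 0.65 (Zfp36l2 with H2-K1) to 0.98 (Mnda with B2m). Each gene named was picked for the highest r among 12795 genes over only 10 libraries. Such a choice gives high values by itself, so they are a description and no result. The interferon list made up 49 of the 12805 genes tested. Of the 50 genes nearest to each member, 6 were on that list for B2m and for H2-K1, 5 for H2-T23, 4 for Tapbp, 3 for Tap1 and for H2-T22, 2 for H2-Q4, 1 for H2-D1 and for H2-Q7, and 0 for Nlrc5. The separate interferon ranges of the libraries enter these r values and counts as well. Ifih1 was 15.2 to 28.8 FPKM in the 5 libraries high in interferon genes and 6.29 to 9.61 FPKM in the others. Its r with B2m therefore describes in part the split between these libraries.

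No other gene of the pathway lists passed the threshold in either direction. Of 20 further genes of peptide supply and loading, 16 had a positive fold change, and the median was 0.07. Hspa5, an endoplasmic reticulum chaperone, was 787 ± 237 FPKM (SD, n = 6) in Shb-inactivated and 681 ± 118 FPKM in wild-type libraries (SD, n = 4). Calreticulin (Calr), a chaperone of the loading complex, was 533 ± 134 FPKM in Shb-inactivated and 504 ± 99.5 FPKM in wild-type libraries. Tap2, the partner of Tap1, had the largest fold change of this list, 0.32, with 19.8 ± 2.84 FPKM in Shb-inactivated and 15.7 ± 1.73 FPKM in wild-type libraries. The immunoproteasome genes Psmb8, Psmb9 and Psmb10 had log2 fold changes of 0.12, 0.15 and 0.05.

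Of 21 other class I and class I-like heavy chain genes in the tables, 11 were tested, 7 of them with a fold change above 0 and a median of 0.12. Fcgrt, which encodes the neonatal Fc receptor, was 63.1 ± 19.7 FPKM (SD, n = 6) in Shb-inactivated and 63.8 ± 49.1 FPKM (SD, n = 4) in wild-type libraries. Raet1e, a ligand of the NKG2D receptor, was 27.0 ± 9.52 FPKM in Shb-inactivated and 19.7 ± 6.75 FPKM in wild-type libraries. Of 15 factors known to act on class I promoters, 9 had a positive fold change, and the median was 0.02. Nfkb1, a subunit of NF-kappa-B, was 57.1 ± 3.88 FPKM in Shb-inactivated and 51.1 ± 4.65 FPKM in wild-type libraries. The RFX subunit genes Rfx5, Rfxap and Rfxank, which bind the X box, had log2 fold changes of 0.28, 0.28 and 0.02. Ezh2, a histone methyltransferase, did not overlap between groups, with 11.9 ± 1.97 FPKM in Shb-inactivated and 17.6 ± 4.33 FPKM in wild-type libraries (limma adjusted p = 0.989). Of all genes tested, 23 (0.18%) were lower in all Shb-inactivated than in all wild-type libraries.

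Of 22 genes of interferon ligands, receptors and signalling, 17 were tested, 15 of them with a fold change above 0 and a median of 0.18. Jak1, a kinase of both interferon receptors, was 82.0 to 101 FPKM in Shb-inactivated and 70.6 to 77.5 FPKM in wild-type libraries, without overlap (exact permutation p = 0.00476, the smallest that 210 splits can give, limma adjusted p = 0.989). Of all genes tested, 69 (0.539%) were higher in all Shb-inactivated than in all wild-type libraries, Pecam1 among them. Ifngr1, a chain of the interferon gamma receptor, was 98.0 ± 10.3 FPKM in Shb-inactivated and 92.7 ± 15.1 FPKM in wild-type libraries. The ligand Ifng was 0.06 to 0.65 FPKM in Shb-inactivated and 0.06 to 0.83 FPKM in wild-type libraries. Ifnb1, which encodes interferon beta, was 1.27 and 4.93 FPKM in Shb-inactivated replicates 3 and 4 and 4.34 FPKM in wild-type replicate 3, the 3 myeloid-rich libraries, and at most 0.12 FPKM elsewhere. Receptors that read class I on lymphocytes were scarce: 13 genes were in the tables, and the 4 tested (Cd8b1, Klrd1, Klrk1 and Pirb) all had fold changes below 0, with a median of -0.54 and adjusted p-values above the threshold. Pirb, an inhibitory receptor also found on myeloid cells, was 14.1 and 16.1 FPKM in Shb-inactivated replicates 3 and 4 and 39.7 FPKM in wild-type replicate 3, and at most 1.03 FPKM in the other Shb-inactivated and 3.14 FPKM in the other wild-type libraries. Klrd1, which encodes CD94, was 1.2 to 4.27 FPKM in Shb-inactivated and 2.66 to 6.36 FPKM in wild-type libraries. The summed level of the 13 genes was 4.42 to 20.3 FPKM in Shb-inactivated and 9.33 to 51.0 FPKM in wild-type libraries. Pirb made up most of the highest sum of each group, with 16.1 of 20.3 FPKM in Shb-inactivated replicate 4 and 39.7 of 51.0 FPKM in wild-type replicate 3.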

How the data were processed

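Ribosomal RNA was removed and stranded libraries were made from total RNA of the sorted cells, per the labels' protocols. The authors deposited FPKM for each gene symbol, 1 table per library, with decimal commas. TopHat2 2.1.1, Cufflinks 2.2.1 and GRCm38 are listed in the submitters' processing notes. The sources used here do not give the annotation, the strand setting or the treatment of shared reads. FPKM sums were 477329 to 576687 per library, and depth is unknown.

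All 10 libraries entered 1 limma fit (version 3.58.1, R 4.3.3) of log2(FPKM + 1), a scale that understates changes of low genes. The filter was 1 FPKM in 4 libraries, the fit used a mean-variance trend without covariates, and two-sided p-values were adjusted by Benjamini-Hochberg over all 12805 genes left. The limma step was tested on simulated data. It recovered 67 of 100 genes shifted by 1 on the log2 scale and 83 of 100 shifted by 2, with 6 wrong calls. The simulated noise was independent between genes, unlike these libraries, so these rates do not carry over to them. Single genes and ratios were also compared by a two-sided exact permutation test over 210 splits. Each p-value measures the spread between libraries, which the series text gives as mice.

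The members, the lists and the 3 myeloid-rich libraries were chosen with earlier results of these data known. By rule, the text names all members, Shb, the 2 most abundant genes of each pathway list, 7 interferon genes, 1 of which is not reported here, and the 2 nearest patterns of each member. Other genes (Tap2, the Psmb and RFX genes, Ezh2, Ifng, Ifnb1, Cd8b1, Klrk1 and Pecam1) were chosen after their values were seen. A list is described by its counts and median, without a test. Shared words were counted in GENCODE vM21 transcripts, and promoters came from a RefSeq table. Alternatives changed the pseudocount, filter, scaling, weights, covariates, replicate block and libraries used. Plots were drawn with matplotlib 3.10.9.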

Additional observations from a re-analysis of the deposited data

Results flagged for a closer look

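In 24 checks of a single library against the rest of its group (10 genes and 2 ratios in 2 groups), wild-type replicate 3 stood apart in 3: it had 605.7 FPKM of H2-D1, 30.83 FPKM of Tap1 and 65.45 FPKM of Tapbp, each the highest of the 4 wild-type libraries and far above the next. Chance flags about 1 in 20 such groups. The 3 flags fall on 1 library and on genes that moved together (r = 0.94 for Tap1 with Tapbp). They are thus not separate events, and their count cannot be set against that rate. The same library was the richest in macrophage transcripts, and the part of these in its class I levels was not tested.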

How the results depend on the processing

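No gene and no member passed the threshold under any of 23 alternatives to limma's settings or to the libraries used. The median log2 fold change of the 10 members stayed above 0, at 0.10 to 0.47 over the 10 fits that left out 1 library. It was 0.51 without the 3 myeloid-rich libraries, 0.24 without the 3 libraries low in microRNA genes (added after the data were seen), 0.35 with array quality weights (whose estimation stopped before full convergence) and 0.10 with the replicate block, a fit in which libraries share only a number: the deviations of same-numbered libraries correlated at 0.436, -0.319, 0.707 and -0.546, so the numbers do not pair them. H2-K1, H2-D1, H2-T22, B2m, Tap1 and Tapbp kept a fold change above 0 in all of these. The sign turned in 22 of 230 values of single members. H2-Q7 was 0.0042 with a pseudocount of 5, 0.0395 on the TPM scale, 0.29 with weights, 0.0411 with the melanoma score, 0.54 without the myeloid-rich libraries and 0.0264 without those low in microRNA genes. Nlrc5 was 0.37 with weights, 0.12 with the melanoma score, 0.25 with the pan-endothelial score, 0.12 without the myeloid-rich libraries and 0.24 without those low in microRNA genes. H2-Q4 was -0.0677 with the replicate block and -0.0217 with the pan-endothelial score. Leaving out 1 library gave H2-Q7 -0.17 to 0.21, Nlrc5 -0.41 to 0.14, H2-Q4 -0.0166 to 0.30 and H2-T23 -0.0414 to 0.50. The difference in the B2m log2 ratio was -0.12 to 0.24 without 1 library, -0.0164 without the myeloid-rich libraries, 0.22 without those low in microRNA genes and -0.13 with the replicate block, against 0.08 with all libraries. That of H2-K1 to H2-D1 was -0.11 to 0.0306 without 1 library, 0.017 without the myeloid-rich libraries and 0.0793 without those low in microRNA genes. The cause of these turns was not tested. Depth is unknown, so the counting error of low genes such as Nlrc5 is unknown too.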
